A study of Mus musculus with 4 samples.

Results

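The 10 genes described here encode receptors for ligands of the tumour necrosis factor (TNF) family and, in *Ngfr*, for neurotrophins, and leave out the ectodysplasin receptors: *Tnfrsf1a*, *Tnfrsf1b*, *Tnfrsf12a*, *Ltbr*, *Fas*, *Tnfrsf10b*, *Tnfrsf21*, *Cd40*, *Ngfr* and *Relt*. They were taken by name, and all 10 were found among the 53647 genes of the count tables through the GENCODE annotation and passed the filter on low counts that left 15173 genes to test. Bulk RNA sequencing covered wild-type mouse primary myotubes, the multinucleated fibre precursors that form when myoblasts fuse, grown from limb muscle myoblasts of pups 2 to 3 days old. In 2 libraries the myotubes had received recombinant EDA-A2, the ectodysplasin isoform that binds EDA2R, at 250 ng/mL for 24 h, and 2 libraries came from control myotubes, whose treatment is labelled only as control. Cells of both groups were harvested at 72 h of differentiation. The labels do not say whether the libraries of a group came from separate cultures, so p-values measure only the spread between these libraries, which may be technical.

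Most TNF receptors are single-pass membrane proteins that gather in clusters when a trimeric ligand binds. Some carry a cytoplasmic death domain, through which adaptors such as TRADD and FADD reach caspases or kinases. Many others bind TRAF adaptors directly and activate NFκB and stress kinases. EDA2R belongs to the same superfamily and signals through TRAFs, which raises the question of whether stimulating it alters the mRNA of the other receptors in the muscle cell.

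Counts on genes totalled 29444155 to 29746863 per library, and TMM scaling factors lay between 0.972 and 1.03. Values below are normalised counts, that is, counts divided by the TMM-adjusted total of the library and multiplied by the average of those totals. The 8 myotube markers examined were all well above the filter, and *Myh3*, the embryonic myosin heavy chain, had 158931 to 231656 counts. Of the 8, 7 were lower in both EDA-A2 libraries than in both controls, as were 22.2% of all genes tested. Called lower were 3 of the 8 (*Myh3*, *Acta1* and *Actn2*), beside 2.13% of all genes tested. The summed normalised counts of the 8 were 630007 and 598308 in control and 447510 and 453768 after EDA-A2. The part of this difference in the receptor results was not tested. Markers of dividing cells were also plentiful (*Mki67*, 7583 to 9242 counts), and their summed normalised counts overlapped between the groups, at 20542 and 24360 in control and 22789 and 22354 after EDA-A2. In bulk RNA, fewer cells of a type and less RNA per cell cannot be told apart. Markers of other cell types ranged from nearly absent to abundant. Of 6 fibroblast markers *Lum* and *Thy1* had 0 counts. The sum over the list, nearly all *Col3a1* and *Col1a1*, was 49598 and 51543 normalised counts in control and 47306 and 47992 after EDA-A2. Of the 4 tested, 2 were higher, *Pdgfra* (log2 fold change 0.16) and *Dcn* (0.48). The 2 lower were *Col1a1* (-0.46) and *Col3a1* (-0.04). edgeR called 0 of the 4, with *Col1a1* and *Dcn* at an unadjusted p under 0.05. The 5 myoblast markers summed to 18514 and 17018 in control and 18008 and 17566 after EDA-A2, and 1 of them, *Cdh15*, was called lower. The 4 endothelial markers summed to 30 to 37 counts per library. The 5 Schwann cell markers summed to 4376 to 5086 counts, nearly all of *Erbb3*. The summed counts of 4 B cell markers were 1 to 2 per library and those of 4 T cell markers 1 to 12. Of 7 macrophage markers 3 were tested and edgeR called 0, with 2 (*Itgam* and *Cd14*, both higher) at an unadjusted p under 0.05; *Adgre1* and *Ptprc* had 0 to 2 counts per library, and the sum over the list, carried mainly by *Cd68*, *Itgam* and *Cd14*, was 89 and 104 counts in control and 160 and 133 after EDA-A2.

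*Fas* rose and *Tnfrsf12a* fell after EDA-A2, and the other 8 receptor genes did not pass the test. *Fas*, the death receptor for FasL, was 1.87-fold higher. *Tnfrsf12a*, which encodes the TWEAK receptor Fn14, a receptor known for its part in atrophy of denervated muscle, was at 0.762 of its control level. The count of 2 called of 10 stands beside 4.57% of all genes tested, the 1 called higher beside 2.45% and the 1 called lower beside 2.13%. Over all genes 371 were called higher and 323 lower, a split that became 485 and 194 under scaling to total counts. The median log2 fold change of the 10 genes was 0.24, against -0.00 over all genes tested. Both EDA-A2 libraries lay above both controls for 7 of the 10, which 22.7% of all genes tested also showed, and below both for 1 of the 10, as for 22.2% of all genes. The groups overlapped for *Tnfrsf1a* and *Ltbr*.

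**Figure D1:**
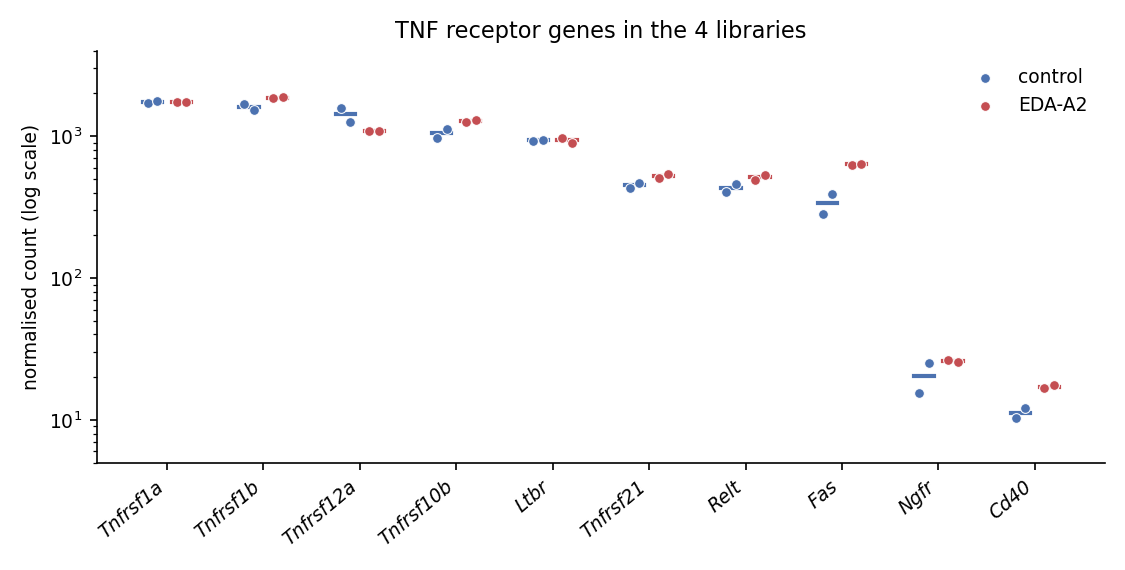
Normalised counts (log scale) of the 10 receptor genes, with 1 point per library and a bar at the mean of the 2 libraries of a group, control in blue and EDA-A2 in red, genes ordered by control mean. *Fas* stands above and *Tnfrsf12a* below control in both EDA-A2 libraries, and *Ngfr* and *Cd40* lie far under the other 8 genes in every library.

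The windows around the transcription start of the called genes are shown because these are the members whose mRNA differed between the groups. Each runs from 250 bases before to 50 bases from the start of the GENCODE canonical transcript, is written 5′ to 3′ on the strand of the gene, and was read from the GRCm39 genome. The motifs searched on both strands were the κB consensus bound by NFκB dimers, the AP-1 motif TGANTCA, and the half-site of the p53 consensus. Capitals mark a match and lower case the rest. The *Cd40* window is added since it is the only one of the 10 with a κB match.
Fas (chr19:34267809-34268108, plus strand): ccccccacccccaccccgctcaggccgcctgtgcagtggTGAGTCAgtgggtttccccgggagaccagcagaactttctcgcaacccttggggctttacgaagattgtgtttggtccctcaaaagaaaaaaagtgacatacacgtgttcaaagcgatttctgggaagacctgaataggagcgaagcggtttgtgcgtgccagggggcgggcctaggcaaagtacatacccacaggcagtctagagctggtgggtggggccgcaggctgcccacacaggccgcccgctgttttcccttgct
Tnfrsf12a (chr17:23896414-23896713, minus strand): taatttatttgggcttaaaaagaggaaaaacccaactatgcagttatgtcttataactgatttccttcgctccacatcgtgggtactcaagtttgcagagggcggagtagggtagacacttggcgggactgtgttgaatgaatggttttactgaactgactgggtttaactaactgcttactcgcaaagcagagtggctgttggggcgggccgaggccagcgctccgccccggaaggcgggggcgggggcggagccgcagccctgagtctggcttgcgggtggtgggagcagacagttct
Cd40 (chr2:164897294-164897593, plus strand): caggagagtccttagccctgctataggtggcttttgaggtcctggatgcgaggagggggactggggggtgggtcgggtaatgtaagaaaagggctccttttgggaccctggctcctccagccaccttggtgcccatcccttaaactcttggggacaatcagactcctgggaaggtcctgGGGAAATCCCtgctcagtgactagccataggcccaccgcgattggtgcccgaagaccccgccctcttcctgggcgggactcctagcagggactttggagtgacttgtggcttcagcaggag

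The *Fas* window held 1 AP-1 match, TGAGTCA, at -211 to -205 from the start, and no match to the other motifs. The *Tnfrsf12a* window held no match to any of the 3. In *Cd40* the κB match was GGGAAATCCC at -71 to -62. Over the windows of 21770 protein-coding genes, 8.97% held a κB match, 7.14% an AP-1 match and 7.89% a p53 half-site. None of the other 7 receptor windows held a match. A match is a description of the letters in the window, and the sites themselves were not measured.

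Among the receptors with a death domain, *Fas* (ENSMUSG00000024778, chromosome 19 from 34268001 to 34305173 of GRCm39) had 281 and 394 normalised counts in control replicates 1 and 2 and 630 and 634 in EDA-A2 replicates 1 and 2. Both EDA-A2 libraries were well above the higher control, while the controls were further apart from each other than the treated libraries were. The log2 fold change was 0.90 (standard error 0.13, 95% interval 0.62 to 1.19), with an adjusted p of 0.000806 in edgeR's quasi-likelihood fit over all genes tested. *Fas* ranked 125 by p-value among the 15173 genes. Without control replicate 1 the log2 fold change was 0.68 (edgeR adjusted p 0.16) and without control replicate 2 it was 1.17 (0.096), fits in which the lone control is assumed to vary like the other libraries and in which 7 and 9 genes of all tested were called. Without EDA-A2 replicate 1 or 2 it was 0.91 and 0.90, with edgeR adjusted p of 0.00018 and 0.000226. *Fas* made up 3.50% and 4.94% of the summed normalised counts of the 10 receptors in control and 7.36% and 7.29% after EDA-A2.

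The ligand of this receptor was near the limit of detection. *Fasl* had 0 counts in both controls and 2 and 0 after EDA-A2, and a count of 0 allows up to 3 counts, or 0.101 to 0.102 CPM at this depth, for counting error only. Of the genes that act just below the receptor, *Casp8*, the initiator caspase recruited by FADD, rose from 341 ± 48.9 to 488 ± 26.1 normalised counts (SD, n = 2), a log2 fold change of 0.52 with an edgeR adjusted p of 0.0208. *Casp8* was picked for mention because of its value. For *Fadd*, the adaptor between receptor and caspase, the log2 fold change was 0.04 (95% interval -0.26 to 0.35), and for *Cflar*, the inhibitor cFLIP, it was 0.23 (95% interval 0.07 to 0.39, edgeR adjusted p 0.108).

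*Tnfrsf10b*, the receptor for TRAIL (ENSMUSG00000022074, chromosome 14 from 70004916 to 70021860), had 977 and 1128 normalised counts in control and 1256 and 1304 after EDA-A2. The groups did not overlap, and the gap between them was smaller than the gap between the controls. The log2 fold change of 0.28 (standard error 0.09, 95% interval 0.10 to 0.47) did not pass the threshold, with an edgeR adjusted p of 0.0879. Its ligand *Tnfsf10* had 0 counts in both controls and 1 in each EDA-A2 library.

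*Tnfrsf21*, or death receptor 6 (chromosome 17 from 43327349 to 43400081), had 432 and 470 normalised counts in control and 511 and 542 after EDA-A2. Its log2 fold change was 0.22, and the 95% interval, 0.00 to 0.44, is for this gene alone. After adjustment over all genes in the edgeR fit its p was 0.308.

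*Tnfrsf1a*, the TNF receptor TNFR1 (chromosome 6 from 125325566 to 125339632), had the highest normalised count of the 10 in control. It had 1727 and 1756 in control and 1741 and 1755 after EDA-A2, so the groups overlapped and the values of the 4 libraries were close together. The log2 fold change was 0.01 with a 95% interval of -0.15 to 0.16 (edgeR adjusted p 0.983). Its exons overlap those of *Plekhg6* on the opposite strand by 19 bases, and *Plekhg6* had 12 to 23 counts. *Tnf*, which encodes its main ligand, had 0 and 1 counts in control and 0 in both EDA-A2 libraries. The adaptor genes *Tradd* and *Ripk1* had log2 fold changes of 0.13 (95% interval -0.17 to 0.42) and 0.12 (-0.11 to 0.35).

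*Ngfr*, the neurotrophin receptor p75 (chromosome 11 from 95459638 to 95478561), was close to the detection limit of the test. Its raw counts were 15 and 25 in control and 27 and 26 after EDA-A2. The log2 fold change of 0.35 had a 95% interval from -0.43 to 1.13, and no change was detected. Without control replicate 1 it was 0.04, and without control replicate 2 it was 0.74. Among its ligands, *Ntf3*, neurotrophin 3, fell from 13 and 20 to 0 and 4 counts (log2 fold change -3.02, edgeR adjusted p 0.0306). *Ntf3* was not called by the DESeq2 Wald test and was not tested where at least 10 counts were required in every library. No ligand gene was called by edgeR without either control library or without EDA-A2 replicate 1, where 2 ligands had an unadjusted p under 0.05 each time. *Bdnf* had a log2 fold change of -0.07 (95% interval -0.43 to 0.29). *Sox10*, a defining marker of Schwann cells, in which *Ngfr* is known to be abundant, had 0 counts in all 4 libraries.

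**Figure D2:**
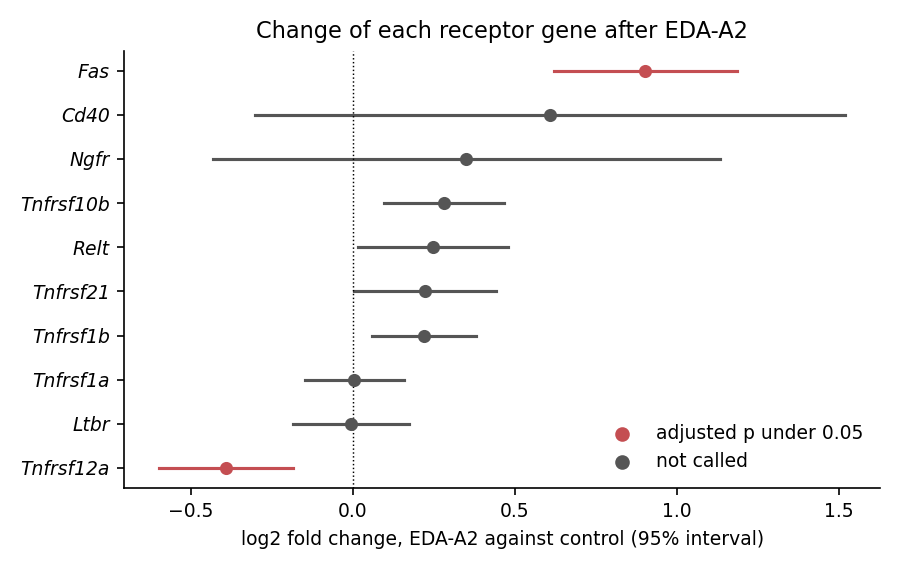
Log2 fold change of each receptor gene, EDA-A2 against control, as a point with its 95% interval from the edgeR fit, red where the adjusted p was under 0.05. The intervals of *Fas* (0.62 to 1.19) and *Tnfrsf12a* (-0.60 to -0.19) lie away from 0, and those of *Cd40* and *Ngfr* are the widest.

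Of the receptors that bind TRAF adaptors directly, *Tnfrsf12a* (ENSMUSG00000023905, chromosome 17 from 23894416 to 23896468) had 1578 and 1268 normalised counts in control and 1079 and 1090 after EDA-A2. Both treated libraries were lower than both controls, and the distance between the controls was larger than that from the lower control to the treated libraries. The log2 fold change was -0.39 (standard error 0.10, 95% interval -0.60 to -0.19, edgeR adjusted p 0.0306). The call was lost when any 1 library was left out, with log2 fold changes of -0.23 without control replicate 1, -0.54 without control replicate 2, -0.38 without EDA-A2 replicate 1 and -0.40 without EDA-A2 replicate 2, and edgeR adjusted p of 0.0835 to 0.272. Under scaling to total counts the edgeR adjusted p was 0.0714. As a share of the summed counts of the 10 receptors, *Tnfrsf12a* went from 19.7% and 15.9% in control to 12.6% and 12.5% after EDA-A2.

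All 1965 exonic bases of *Tnfrsf12a* lie inside exons of *Hcfc1r1*, a gene on the opposite strand, in the GENCODE annotation. The libraries were stranded, but the strand option of the counting is not given in the sources used here. Without strand the reads of such a pair cannot be told apart. Pairs that HTSeq found ambiguous were left out of the counts and made up 0.946% to 0.986% per library, and *Tnfrsf12a* kept 1101 to 1532 counts. The part of the overlap in these counts was not tested. *Hcfc1r1* itself had 2972 to 3304 counts and a log2 fold change of -0.10 (edgeR adjusted p 0.579). The gene of the TWEAK ligand, *Tnfsf12*, had 44 and 51 counts in control and 70 and 42 after EDA-A2, a log2 fold change of 0.18 with a 95% interval of -0.43 to 0.79.

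*Tnfrsf1b*, the TNF receptor TNFR2 (chromosome 4 from 144938938 to 144973477), had 1674 and 1534 normalised counts in control and 1849 and 1888 after EDA-A2. Treated libraries were above both controls, and the log2 fold change was 0.22 (standard error 0.08, 95% interval 0.06 to 0.38). It did not pass after adjustment (edgeR adjusted p 0.131). *Relt*, a receptor known chiefly from lymphoid tissue (chromosome 7 from 100495054 to 100512763), had 406 and 459 in control and 490 and 537 after EDA-A2, with a log2 fold change of 0.25 (95% interval 0.02 to 0.48, edgeR adjusted p 0.275). Both genes thus lay above control in both treated libraries without being called.

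*Ltbr*, the lymphotoxin beta receptor (chromosome 6 from 125283534 to 125290886), signals to noncanonical NFκB through TRAF3 and NIK. Its normalised counts were 930 and 944 in control and 967 and 899 after EDA-A2, and the groups overlapped. The log2 fold change was -0.01 (95% interval -0.18 to 0.17, edgeR adjusted p 0.984), and its sign changed under scaling to total counts. The lymphotoxin genes *Lta* and *Ltb* had 0 or 1 count in each library.

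*Cd40*, the costimulatory receptor of B cells and macrophages (chromosome 2 from 164897544 to 164914868), had the fewest counts, 10 and 12 in control and 17 and 18 after EDA-A2. The groups did not overlap, but the log2 fold change of 0.61 had a 95% interval of -0.30 to 1.52 and an edgeR adjusted p of 0.571. Its ligand gene *Cd40lg* had 0 counts in all 4 libraries. Of the 7 macrophage markers, *Itgam* had 18 and 18 counts in control against 39 and 32 after EDA-A2. *Cd14* had 11 and 17 against 30 and 26, and *Cd68* 54 and 63 against 81 and 69. *Csf1r* had 3 and 1 against 8 and 3, and *Lyz2* 3 and 2 against 1 and 2. *Adgre1* had 0 and 1 against 0 and 0, and *Ptprc* 0 and 2 against 1 and 1. Of the 3 markers tested edgeR called 0, and the part of such cells in the *Cd40* counts was not tested.

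**Figure D3:**
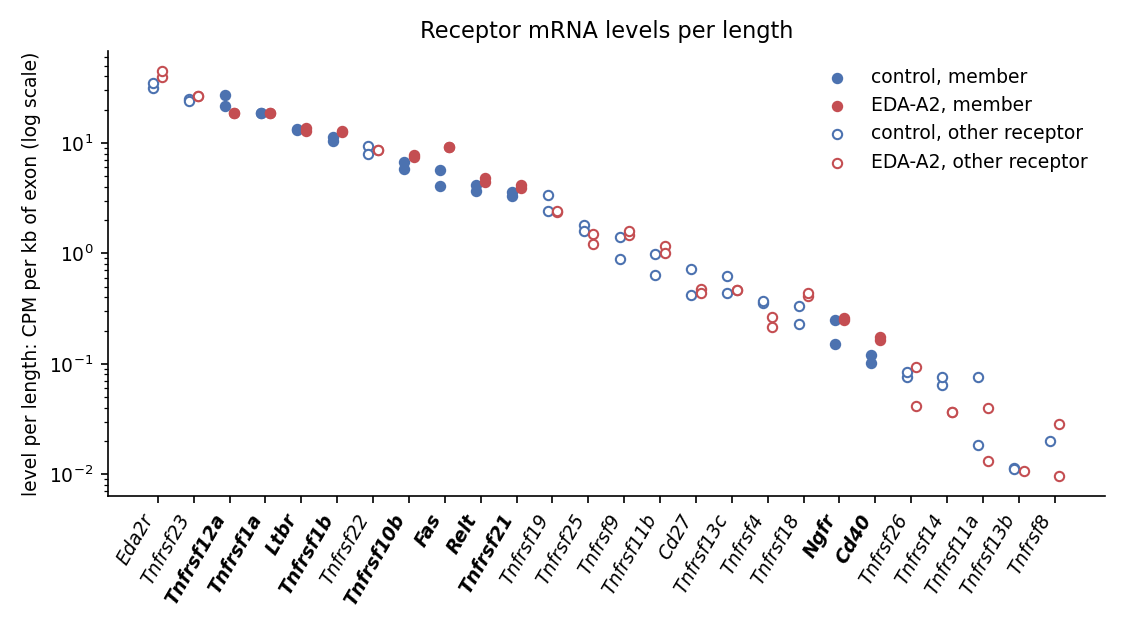
Level of each receptor mRNA per length, in CPM per kb of exon (log scale), with filled points for the 10 members (bold names), open points for other receptors, control in blue and EDA-A2 in red, ordered by control mean. Libraries at 0 are not drawn, nor are *Edar* and *Tnfrsf17*, which had 0 counts throughout; 8 of the members lie above 3 CPM per kb in both controls and *Ngfr* and *Cd40* below 0.3.

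Levels can be compared between genes only per length, here as TMM-scaled CPM per kb of exon. In control, *Tnfrsf12a* had the highest level, 24.5 ± 3.78 CPM per kb (SD, n = 2), followed by *Tnfrsf1a* (18.7 ± 0.218), *Ltbr* (13.2 ± 0.135), *Tnfrsf1b* (10.9 ± 0.678) and *Tnfrsf10b* (6.24 ± 0.636). *Fas* ranked 6 (4.92 ± 1.16) and its range overlapped that of *Relt* below it (3.89 ± 0.337), while no other neighbours in the order overlapped. *Tnfrsf21* stood at 3.46 ± 0.207, and *Ngfr* and *Cd40* at 0.199 ± 0.0675 and 0.111 ± 0.0126. The median over the 15103 genes tested with a length was 3.20 CPM per kb, so 8 of the 10 receptors were above it. After EDA-A2, the levels of *Tnfrsf12a* (18.5 and 18.7) and *Tnfrsf1a* (18.7 and 18.8) overlapped, and *Fas* (9.20 ± 0.0379) moved above *Tnfrsf10b* (7.59 ± 0.204). With the longest protein-coding transcript as the length, *Tnfrsf12a* ranked 1 in both groups (by exon length it ranked 2 after EDA-A2) and *Fas* ranked 4 after EDA-A2, while *Tnfrsf10b* and *Tnfrsf1b* changed places.

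*Eda2r*, the receptor of the protein added here, had a level of 33.1 ± 2.11 CPM per kb in control and 42.1 ± 3.88 after EDA-A2. In control it was above all 10 by exon length, but by the longest transcript it was at 38.3, below *Tnfrsf12a* at 43.3. *Eda2r* was called higher (log2 fold change 0.35, edgeR adjusted p 0.0178), a call lost without either control or without EDA-A2 replicate 2. Of the 18 other receptor genes of the superfamily, 11 were tested. Beside 2.45% of all genes tested called higher and 2.13% lower, 1 of the 11 was called higher and 0 lower (1 lower, *Tnfrsf19*, at an unadjusted edgeR p under 0.05). Their median log2 fold change was -0.01, beside 0.24 for the 10 members. The others with the smallest p-values were *Tnfrsf19* (log2 fold change -0.29), *Tnfrsf9* (0.41), *Tnfrsf25* (-0.33) and *Tnfrsf11b* (0.43), with edgeR adjusted p of 0.298 to 0.432.

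**Figure D4:**
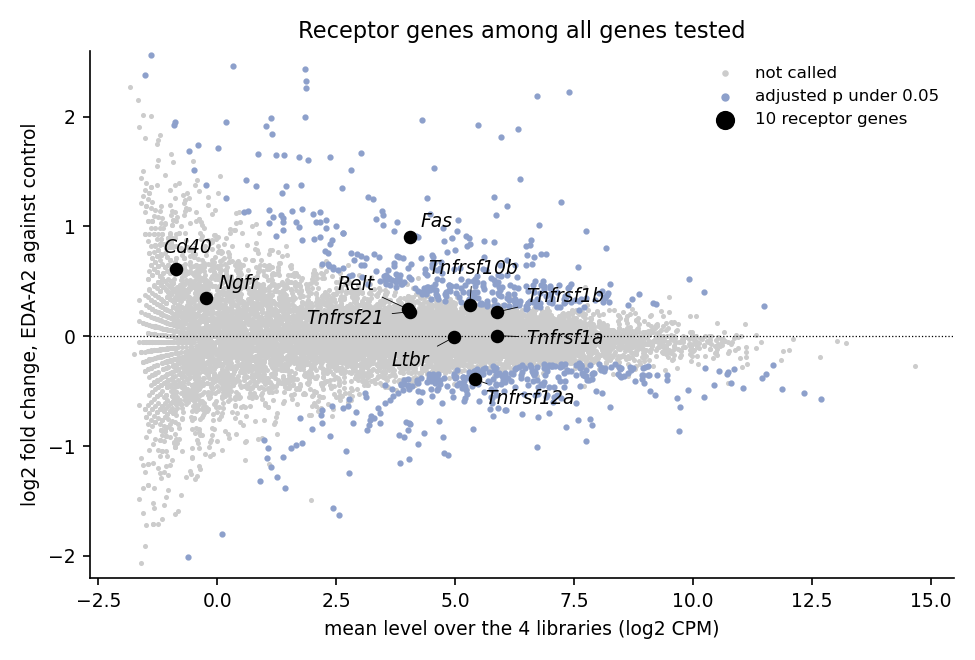
Log2 fold change against mean log2 CPM over the 4 libraries for all 15173 genes tested, grey where not called, blue where the edgeR adjusted p was under 0.05 and black for the 10 receptor genes; 15 genes lie outside the vertical axis. *Fas* at 0.90 is the receptor farthest from 0 among those at moderate or high level.

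The ligand genes of the superfamily and the neurotrophins numbered 22. Of these, 12 had at most 3 counts in every library and 4 of them had 0 throughout. Another 9 were tested, with *Ntf3* the only one called, beside 2.13% of all genes tested called lower. The next smallest p-values were those of *Tnfsf9* (log2 fold change 0.32, 95% interval 0.06 to 0.58), *Ntf5* (0.47), *Tnfsf13b* (0.71) and *Eda* (-0.22), none of which passed. Receptor mRNA was thus measured in cultures where most ligand mRNAs were at or under the floor.

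Genes that act next to the receptors, as adaptors, co-receptors or sheddases, numbered 22, of which 20 were tested. Where 2.45% of all genes tested were called higher, 6 of these 20 were called higher and 0 lower. Without control replicate 1 or 2 edgeR called 0 of them, with 10 and 7 at an unadjusted p under 0.05. The median log2 fold change of the 20 was 0.12. *Traf3* rose from 1233 ± 31.7 to 2812 ± 116 normalised counts and *Traf2* from 1178 ± 0.106 to 2131 ± 76.3 (SD, n = 2), log2 fold changes of 1.19 and 0.86. These adaptors hold NIK and the cIAPs in a complex below TRAF-binding receptors such as *Ltbr*, *Cd40*, *Tnfrsf12a* and EDA2R. *Map3k14*, which encodes NIK, rose by a log2 fold change of 1.11, and *Traf1* and *Birc3* went from 5 and 7 to 39 and 52 counts and from 4 and 3 to 69 and 54. Of these receptors *Tnfrsf12a* was called lower and *Eda2r* higher, and *Ltbr* and *Cd40* were not called. *Adam17*, the protease that sheds TNF receptors, had a log2 fold change of 0.11 (95% interval -0.03 to 0.25).

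The 3 protein-coding genes whose pattern over the 4 libraries was most like that of *Fas*, by the root mean square difference of centred log2 normalised counts among 13064 genes, were *Nostrin* (0.03), *Maf* (0.04) and *Nckap5* (0.06). *Maf* had 700 and 919 normalised counts in control and 1512 and 1489 after EDA-A2 and was called higher (edgeR adjusted p 0.000121). *Nostrin*, at 6 to 16 counts, and *Nckap5* were not called. The nearest genes to *Fas* on the chromosome, a pseudogene 6064 bases to one side and *Ch25h* 146005 bases to the other, had no counts and a log2 fold change of -0.15 (edgeR adjusted p 0.922). *Rhobtb2*, which begins 575 bases beyond *Tnfrsf10b* on the opposite strand, had a log2 fold change of -0.15 (edgeR adjusted p 0.416).

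**Figure D5:**
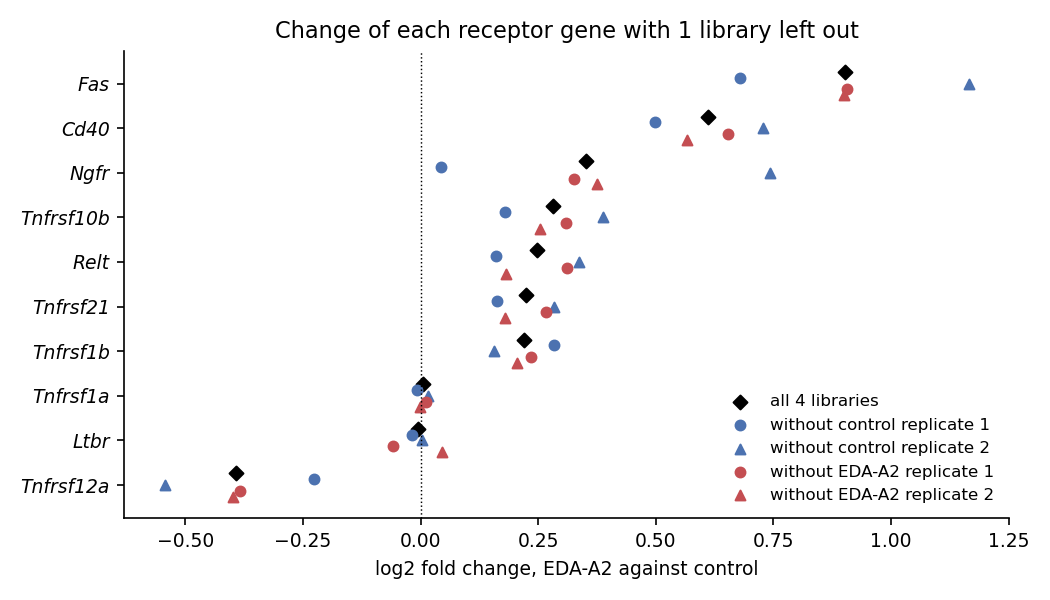
Log2 fold change of each receptor gene with all 4 libraries (black) and after dropping 1 library at a time (blue for a control, red for an EDA-A2 library). Leaving out a control moves *Fas* to 0.68 or 1.17 and *Tnfrsf12a* to -0.23 or -0.54, and both keep their side of 0.

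With 1 library dropped at a time, the log2 fold changes stayed above 0 for *Tnfrsf1b* (0.16 to 0.28), *Tnfrsf10b* (0.18 to 0.39), *Tnfrsf21* (0.16 to 0.28), *Relt* (0.16 to 0.34), *Cd40* (0.50 to 0.73) and *Ngfr* (0.04 to 0.74), and changed sign for *Tnfrsf1a* (-0.01 to 0.01) and *Ltbr* (-0.06 to 0.05). For *Fas* and *Tnfrsf12a* the larger shifts came from dropping a control, and for *Ltbr* from dropping an EDA-A2 library. The control libraries differed from each other more than the treated ones did, with a standard deviation of the log2 ratio between replicates of 0.34 against 0.28 over all genes tested.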

How the data were processed

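RNA of wild-type mouse primary myotubes was sequenced from 4 stranded, polyadenylated libraries, 2 control and 2 treated with EDA-A2. Per the labels, the authors used FastQC 0.11.9, MultiQC 1.12 and Trim Galore 0.6.5, mapped reads to GRCm39 with STAR 2.7.3a and counted them with HTSeq 0.11.1, and they deposited raw counts per Ensembl gene, without normalization. The annotation release and strand option are not given in the sources used here. HTSeq's summary lines were left out: pairs outside genes (6.68% to 7.40%), ambiguous pairs (0.946% to 0.986%) and pairs not mapped uniquely (4.56% to 4.76%). Symbols, positions and lengths came from GENCODE M39 on GRCm39, which matched 52610 of 53647 genes.

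Tests used edgeR 4.0.16 in R 4.3.3 (TMM, filterByExpr with a minimum count of 10 and total of 15, glmQLFit, glmQLFTest, condition as the only term) over all 15173 genes kept, with Benjamini-Hochberg adjustment and a threshold of 0.05. Standard errors are the log2 fold change over the root of F, and 95% intervals use the fit's t distribution, gene by gene. The likeness of patterns used log2 of normalised counts plus 1. Steps were tested on simulated counts.

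The members and the lists of other receptors, ligands, partners and cell type markers were chosen with earlier results of these data known. Genes named were all members, up to 5 per list with the smallest p-value, the 3 genes most like the called member with the largest change, and overlapping or neighbouring genes. Others (the members' own ligands and adaptors, and the markers) were named after their values were seen. Alternatives were DESeq2 1.42.0 size factors or Wald test, upper quartile factors, total counts, other filters, a replicate block, protein-coding genes only, robust dispersion, leaving out each library, and, for levels, the longest transcript. The replicate numbers were checked for pairing: over 15173 genes, the difference between replicates 1 and 2 in control correlated with that in EDA-A2 at r = 0.06 (Spearman's rho 0.10), across genes, which are not independent.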

Additional observations from a re-analysis of the deposited data

How the results depend on the processing

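The number of genes called was 694 of 15173 tested, and fell to 86 with no filter beyond 1 count in total, where 25545 genes were tested. With a library left out it was 7 to 416, since fewer samples enter the fit, and a lone library is assumed to vary like the others. With the replicate number as a block it was 1066, and the blocked fit called 3 receptors, 2 of them higher, adding *Tnfrsf10b* (log2 fold change 0.28, edgeR adjusted p 0.0242). The labels share only the numbers, so this fit is not the main one. Total counts gave 485 higher and 194 lower, against 371 and 323, and left 1 receptor called (*Fas*) and 0 called lower, with 1 lower at an unadjusted p under 0.05. With no filter edgeR called 0 of the 10 receptors, 0 other receptors and 0 ligands, with 4, 1 and 1 at an unadjusted p under 0.05. Leaving out a library gave 0 to 1 receptors called in all, 0 to 1 higher and 0 lower (1 lower at an unadjusted p under 0.05 each time), 0 to 1 other receptors, 0 to 1 ligands and 0 to 6 partners. *Ntf3* was the ligand lost, leaving 0 called, with at least 10 counts in every library and by the DESeq2 Wald test, where 1 and 2 ligands had an unadjusted p under 0.05. DESeq2 called *Fas* and *Tnfrsf12a*, as edgeR did. *Ltbr* changed sign under total counts (0.0493) and over the libraries left out (-0.0595 to 0.0459), and *Tnfrsf1a* over the libraries left out (-0.00854 to 0.0149). Of the log2 fold changes recomputed for the receptors, 115 kept their direction and side of the threshold, 9 lost and 1 gained a call and 5 changed sign. At 10 to 27 counts per library, depth limits what can be said of *Cd40* and *Ngfr*.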

Other observations

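Among the other receptors of the superfamily, *Tnfrsf23* and *Tnfrsf22*, neighbouring decoy receptor genes known from mouse, had levels of 24.6 ± 0.946 and 8.72 ± 1.04 CPM per kb of exon in control (SD, n = 2). With the longest protein-coding transcript as the length, *Tnfrsf23* was at 75.1, above every member. Their log2 fold changes were 0.12 (95% interval -0.03 to 0.26) and -0.01 (-0.19 to 0.18), and neither was called. They were named after their values were seen, and as close paralogs their split of reads is uncertain. *Tnfrsf8*, 20230 bases from *Tnfrsf1b* on the same strand, had 0 to 3 counts per library, against 1521 to 1921 counts of *Tnfrsf1b*. *Scnn1a*, which lies between *Ltbr* and *Tnfrsf1a* on chromosome 6, had 33 and 47 counts in control and 62 and 53 after EDA-A2 (log2 fold change 0.47, edgeR adjusted p 0.464).

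The neurotrophin receptor partners *Sort1* (sortilin) and *Maged1* had log2 fold changes of -0.20 (95% interval -0.37 to -0.03, edgeR adjusted p 0.227) and -0.07 (-0.22 to 0.08), at 4320 to 5450 and 14280 to 15992 counts per library, far above the 15 to 27 counts of *Ngfr*.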
